A study of Mus musculus with 6 samples.

Results

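The 10 genes described here encode transcription factors and nuclear regulators of the immediate early response: the AP-1 subunits Fos, Fosb, Jun and Junb, the zinc finger factors Egr1 and Klf6, the stress-inducible bZIP factor Atf3, the orphan nuclear receptor Nr4a1, the growth regulator Myc and the nuclear protein Ier2. They were taken by symbol from a table of 55401 gene rows, in which each had 1 row. The set was proposed with results of these libraries in view and may thus have been chosen by the fold changes of immediate early genes between the same groups, so differences between the groups are given for these genes as a description, without p-values. All 10 passed the filter on low counts, which left 17573 genes. Some passed on few reads: Atf3 had 0 to 16 counts per library.

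Newly made RNA was labelled with 4-thiouridine (4sU), a uridine analogue that cells build into transcripts, then biotinylated, captured on streptavidin beads and sequenced. The cells were 129/Ola mouse embryonic stem cells, grown in serum and leukemia inhibitory factor, whose zinc finger protein ZFP207 is, per the titles and the treatment protocol, fused to an auxin-inducible degron (AID). Adding the auxin IAA directs such a fusion to the proteasome. The control group is 3 libraries of cells without IAA (labelled AID 0h, genotype WT), and the depleted group is 3 libraries of cells with IAA for 5 h (labelled AID 5h, genotype given as ZFP207 degradation). The WT label leaves unstated whether the controls carried the degron, the number of clones is not given in the sources used here, and no degron-free cells with IAA were analysed here, so IAA and loss of ZFP207 cannot be told apart. The series asks how ZFP207 bears on U1 snRNP, which marks 5′ splice sites for the spliceosome.

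Immediate early genes are switched on within minutes of a signal, without new protein synthesis. The kinase ERK and its partners phosphorylate ready-made factors on their promoters, chiefly the ternary complex factors bound beside SRF on CArG boxes and CREB on cAMP response elements. Their primary transcripts are mostly short, and the mRNAs of many carry AU-rich elements that lead to rapid decay, so that the newly made fraction is a large part of what a cell holds. The proteins in turn drive a second wave of genes: FOS and JUN proteins pair through leucine zippers to form AP-1, EGR1 binds GC-rich sites, and MYC with MAX binds E-boxes. In embryonic stem cells, MYC and JUNB are also known as targets of the LIF and STAT3 pathway.

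The promoters were searched because immediate early genes are known to share signal inputs, which were not measured here. A RefSeq window (GRCm38.p6) ran from 250 bases before to 50 after an annotated start. Such a window was searched for 7 of the 10 genes: Atf3, Fos, Fosb, Jun, Junb, Klf6 and Nr4a1. The core of the cAMP response element, TGACG, was searched on both strands and was found in 5 of these 7 windows, against 20.81% of 32851 windows of the same length. The 110 bases before the start are shown for those 5 and for Jun, which had the largest fold change and no match. They are written 5′ to 3′ on the gene's strand, and capitals mark TGACG or, for the opposite strand, its complement CGTCA.
Fos: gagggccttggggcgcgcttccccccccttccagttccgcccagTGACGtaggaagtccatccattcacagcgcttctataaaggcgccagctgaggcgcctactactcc
Fosb: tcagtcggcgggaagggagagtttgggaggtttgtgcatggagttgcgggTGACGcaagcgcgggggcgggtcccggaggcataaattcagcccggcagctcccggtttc
Junb: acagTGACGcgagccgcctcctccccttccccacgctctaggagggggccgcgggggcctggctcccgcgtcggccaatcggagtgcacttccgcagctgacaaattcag
Nr4a1: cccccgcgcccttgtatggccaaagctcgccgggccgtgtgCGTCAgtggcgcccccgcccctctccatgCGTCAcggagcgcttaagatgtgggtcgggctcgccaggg
Atf3: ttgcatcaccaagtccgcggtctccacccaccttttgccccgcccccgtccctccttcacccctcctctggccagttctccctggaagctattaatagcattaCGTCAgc
Jun: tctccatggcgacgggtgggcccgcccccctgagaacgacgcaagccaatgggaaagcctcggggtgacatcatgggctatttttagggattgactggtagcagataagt

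These stretches lie at chr12:85473780-85473889 (plus strand) for Fos, chr7:19310046-19310155 (minus) for Fosb, chr8:84978749-84978858 (minus) for Junb, chr15:101266736-101266845 (plus) for Nr4a1, chr1:191183334-191183443 (minus) for Atf3 and chr4:95052223-95052332 (minus) for Jun. The windows of Nr4a1 and Fosb belong to starts inside the annotated intervals of these genes. Counting the base before the start as -1, the matches begin at -66 and -129 in Fos, -60 in Fosb, -106 in Junb and -7 in Atf3, and at -40, -69, -213 and -233 in Nr4a1. The full element TGACGTCA, the AP-1 site TGANTCA and the CArG box were found in 0 of the 7 windows, against 1.79%, 7.81% and 1.63% of all windows, on both strands. TATAAA was present in Fos, at -33, and in Junb, where it begins at the first annotated base, against 13.62% of all windows. The GC box GGGCGG was present in 6 of the 7 and CCAAT in 4, against 35.66% and 37.41%. The TGACG search counts every full TGACGTCA as well. A match is an exact match of letters in this window only. Near matches, such as tgacatca in the stretch of Jun, were not counted. The promoters of Egr1, Ier2 and Myc were not searched, so these motif counts do not cover them. No binding was measured.

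Libraries held 14336811 to 25916628 counts. Levels are TMM-normalised CPM, that is, counts scaled to a common library total after correction by the trimmed mean of M values, and they are compared within a gene and not between genes, since transcript lengths were not used. Same-numbered libraries of both groups deviated together, so a paired fit, with the replicate number as a block, is given beside the unpaired one. The labels do not say that replicates came from separate cultures, and p-values reflect only how far the libraries spread, which may be technical. Marker sums in the next sentences are plain counts per total, without TMM scaling. The 8 stem cell markers (Pou5f1, Sox2, Nanog, Esrrb, Zfp42, Dppa5a, Tdgf1, Utf1) summed to 3834 to 4617 CPM in controls and 4048 to 4890 CPM in depleted libraries. The 8 fibroblast feeder markers summed to 6.14 to 10.9 and 2.90 to 5.86 CPM, with Col3a1, Postn, Dcn and Lum at 0 in all libraries. The 6 primitive endoderm markers summed to 4.03 to 8.80 and 7.40 to 9.35 CPM, and the 6 mesoderm and ectoderm markers to 24.5 to 38.3 and 20.7 to 39.1 CPM, with T at 0. Fewer expressing cells and less RNA per cell cannot be told apart in such bulk libraries. Zfp207 RNA (chromosome 11, 80383279 to 80408561) was at 545 to 1116 CPM without IAA and at 596 to 1467 CPM with it, higher in 3 of 3 pairs (paired log2 fold change 0.29, SE 0.07, paired edgeR adjusted p = 0.0196; unpaired edgeR adjusted p = 0.823), which does not check the protein that the degron removes.

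All 10 genes had a fold change above 0 in depleted over control cells, and their median, 0.34 on the log2 scale, stood beside 0.02 for all 17573 genes, of which 52.3% were above 0. For 8 of the 10 the annotated gene is under 10 kb, and the 5065 tested genes of that length had a median of 0.14, with 63.3% above 0. The depleted library was the higher one in all 3 pairs for 7 of the 10, against 24.2% of all tested genes and 28.7% of those under 10 kb. The median over the 10 genes was 0.20, 0.52 and 0.23 in pairs 1, 2 and 3. The unpaired edgeR fit called 0 of the 10 higher (0.0114% of all genes were called higher) and 0 lower (0.78%). At an unadjusted p under 0.05 that fit held 1 of them, and DESeq2 called 0. The paired edgeR fit called Ier2, Myc and Nr4a1 higher, 3 of 10, against 4.96% of all genes and 5.88% of those under 10 kb. It called 0 of the 10 lower, against 7.9% of all genes and 122 of the 5065 under 10 kb. Nothing is read from these counts, or from the calls of single genes given below, because the set was chosen with this contrast known.

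**Figure D1:**
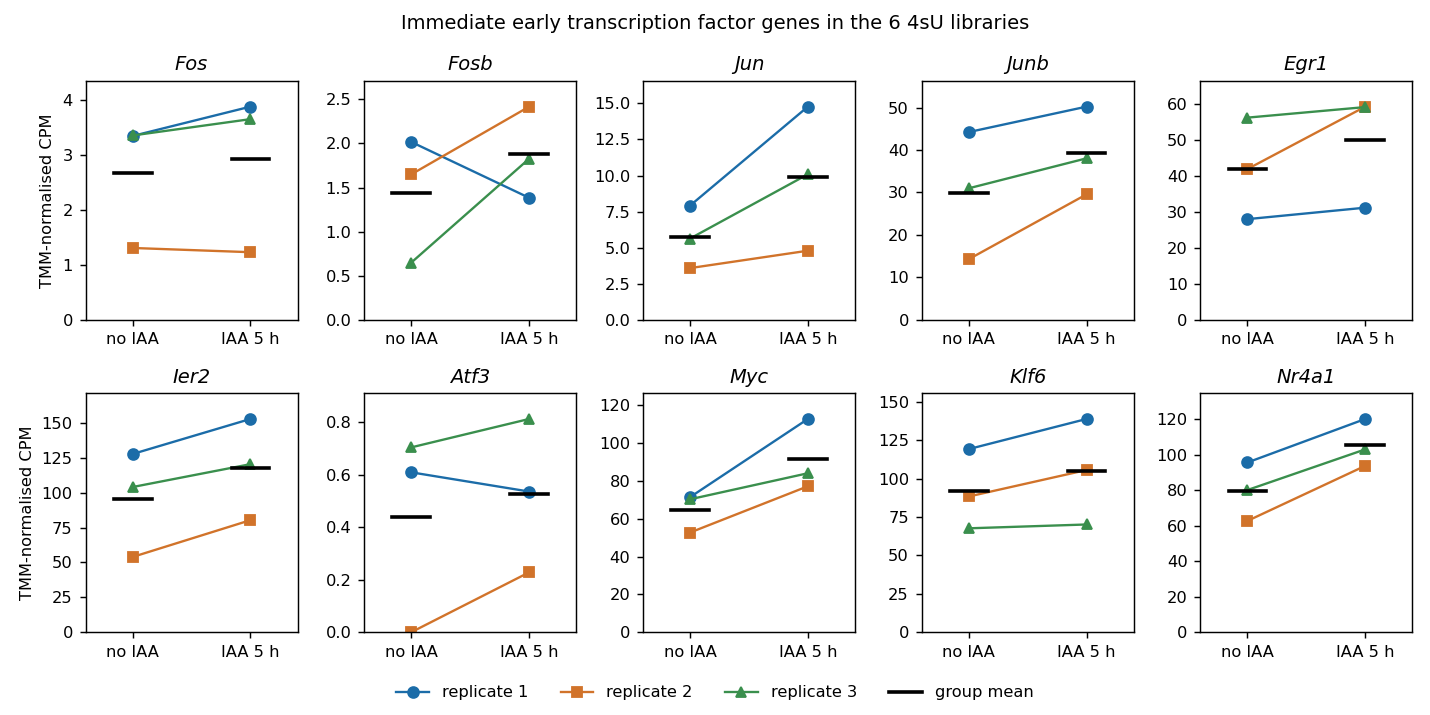
TMM-normalised CPM (vertical axes from 0, one scale per gene) of each gene in cells without IAA and with IAA for 5 h. Coloured lines join libraries of the same replicate number and black bars are group means; the lines of Jun, Junb, Egr1, Ier2, Myc, Klf6 and Nr4a1 climb in all 3 pairs, and the depleted libraries lie above all controls for Myc, at 77.2 to 113 against 52.7 to 71.4 CPM.

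Among the AP-1 subunits, Jun encodes the partner that can pair with itself or with FOS proteins (chromosome 4, 95049036 to 95052222). It stood at 7.92, 3.59 and 5.63 CPM in replicates 1 to 3 of the controls and at 14.8, 4.79 and 10.1 CPM in those of the depleted group, from 63 to 331 counts. Each depleted library was above its numbered control, by 1.87-, 1.34- and 1.79-fold, but the groups overlapped because depleted replicate 2 lay below control replicates 1 and 3. The means were 5.71 ± 2.17 and 9.88 ± 5.00 CPM (SD, n = 3), and the log2 fold change was 0.79 (SE 0.45) unpaired and 0.73 (SE 0.25) paired, the largest of the 10 in both fits. Neither fit called it.

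Junb (chromosome 8, 84976909 to 84978748) encodes a JUN protein with weaker activation than JUN. Its levels were 44.2, 14.3 and 31.0 CPM in controls and 50.2, 29.6 and 38.0 CPM in depleted libraries. Control replicate 2 was the lowest by far, and the fold within that pair, 2.07, exceeded the 1.14 and 1.23 of pairs 1 and 3. The log2 fold change of 0.39 (SE 0.37) was 0.06 once control replicate 2 and 0.81 once control replicate 1 was left out. In the paired fit it was 0.49 (SE 0.17), which was not called.

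Fos (chromosome 12, 85473890 to 85477274) is the founding FOS family member and cannot bind DNA without a JUN partner. It had 88, 23 and 62 counts in controls and 87, 27 and 54 in depleted libraries. As levels these were 3.35, 1.31 and 3.36 CPM against 3.88, 1.23 and 3.66 CPM. The depleted library was the higher one in pairs 1 and 3 only, and the log2 fold change of 0.12 (SE 0.57) was the smallest of the 10. Leaving out control replicate 2 turned it to -0.20, and leaving out depleted replicate 1 or 3 to -0.14 or -0.05.

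Fosb (chromosome 7, 19302696 to 19310118), which encodes another FOS protein and a truncated splice form of it, had 12 to 53 counts per library. Its levels were 2.02, 1.65 and 0.65 CPM in controls and 1.38, 2.42 and 1.83 CPM in depleted libraries. Pair 1 ran downward and pairs 2 and 3 upward, so the log2 fold change of 0.38 (SE 0.58) went with no common direction of the pairs. Without control replicate 3 it was 0.02.

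The zinc finger factor Egr1 (chromosome 18, 34861207 to 34864956) is a classic readout of ERK activity. It stood at 28.0, 41.9 and 56.2 CPM in controls and at 31.2, 59.2 and 59.1 CPM in depleted libraries. Within pairs the depleted library was higher by 1.11-, 1.41- and 1.05-fold, and the groups overlapped. Unlike most of the set, Egr1 was lowest in replicate 1 of both groups. Its log2 fold change was 0.25 (SE 0.31) unpaired, 0.24 (SE 0.12) paired and 0.02 without control replicate 1.

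Klf6 (chromosome 13, 5861489 to 5870393), a Krüppel-like factor that binds GC-rich promoters, stood at 119, 88.4 and 67.7 CPM in controls and at 139, 106 and 70.2 CPM in depleted libraries. Its pair folds of 1.16, 1.20 and 1.04 were among the smallest of the set, and replicate 3 was lowest in both groups. The log2 fold change of 0.19 (SE 0.28) was -0.06 with depleted replicate 1 left out and 0.01 with control replicate 3 left out.

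Ier2 (chromosome 8, 84661331 to 84662852) encodes a small nuclear protein and is the shortest gene of the set, at 1.52 kb. It stood at 128, 54.0 and 104 CPM in controls and at 153, 80.3 and 121 CPM in depleted libraries, from 948 to 3426 counts. The depleted library was higher by 1.20-, 1.49- and 1.16-fold in pairs 1 to 3, and the groups overlapped because replicate 2 was low in both. The log2 fold change was 0.31 (SE 0.33) unpaired and 0.34 (SE 0.09) paired. The call in the paired fit was lost when any 1 pair was left out, with values of 0.24 to 0.40.

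Atf3 (chromosome 1, 191170296 to 191183333), whose product represses or activates transcription under stress, was close to the detection limit. It had 16, 0 and 13 counts in controls and 12, 5 and 12 in depleted libraries. Its log2 fold change was 0.23 (SE 1.19) unpaired and 0.70 (SE 1.28) paired, and the unpaired value turned to -0.33 when control replicate 2 and to -0.19 when depleted replicate 3 was omitted. With this standard error, no difference of Atf3 could be told from 0.

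Myc (chromosome 15, 61985341 to 61990361) stood at 71.4, 52.7 and 70.3 CPM in controls and at 113, 77.2 and 84.1 CPM in depleted libraries. It was the 1 gene of the 10 whose depleted libraries all lay above all controls, as did 6.94% of all tested genes. The pair folds were 1.58, 1.46 and 1.20. The log2 fold change was 0.50 (SE 0.20) unpaired and 0.49 (SE 0.10) paired. Its call in the paired fit was lost without pair 1, where the value was 0.40.

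Nr4a1 (chromosome 15, 101253902 to 101274795), a nuclear receptor without a known natural hormone, stood at 95.6, 62.7 and 80.1 CPM in controls and at 120, 93.8 and 103 CPM in depleted libraries. Depleted replicate 2 lay just below control replicate 1, and otherwise the groups were separate. Its pair folds of 1.26, 1.49 and 1.29 were close to one another. The log2 fold change was 0.41 (SE 0.19) unpaired and 0.42 (SE 0.09) paired, and the paired call was lost without pair 2, where the value was 0.35. At 20.9 kb it is the longest gene of the set, followed by Atf3 at 13.0 kb.

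**Figure D2:**
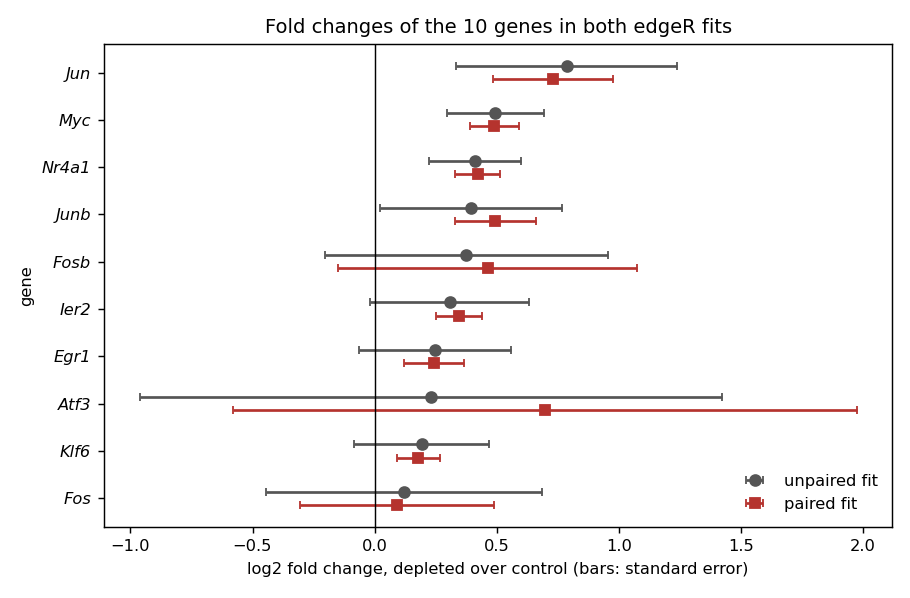
Log2 fold change of depleted over control libraries (horizontal axis, bars are standard errors) for each gene in the unpaired and the paired edgeR fit. The values run from 0.12 for Fos to 0.79 for Jun in the unpaired fit, and the bars are widest for Atf3 and Fosb, the genes with the fewest counts.

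The genes differed in how their levels moved between libraries of 1 group. The coefficient of variation over the 3 controls was 16.2% for Myc, 20.7% for Nr4a1, 28.3% for Klf6, 33.6% for Egr1, 37.9% for Jun, 39.6% for Ier2 and 50.3% for Junb. Counting error alone would give 2.70%, 2.43%, 2.25%, 3.46%, 8.94%, 2.19% and 3.89%, from the mean counts of these genes. For Fos it was 44.2% against 13.2%, for Fosb 49.2% against 17.9% and for Atf3 87.3% against 32.2%. Separate libraries can differ by more than counting error, so the counting values give only the part of the spread that reads set.

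Replicate 2 was the lowest library of both groups for Fos, Jun, Junb, Ier2, Atf3, Myc and Nr4a1. Egr1 was lowest in replicate 1 of both groups and Klf6 in replicate 3 of both. The lowest library therefore carried the same number in both groups for 9 of the 10 genes, Fosb being the exception, against 54.8% of all tested genes. In the other gene lists described below this share ran from 52.4% (partner genes) to 87.5% (feedback genes), so it is not particular to these 10. The median fold change followed these libraries. Omitting control replicate 2 gave 0.21 and omitting depleted replicate 2 gave 0.51, while it was 0.58 once control replicate 1 and 0.26 once depleted replicate 1 was omitted, against 0.34 with all 6. Between 8 and 10 of the 10 genes stayed above 0 when any 1 library was left out.

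**Figure D3:**
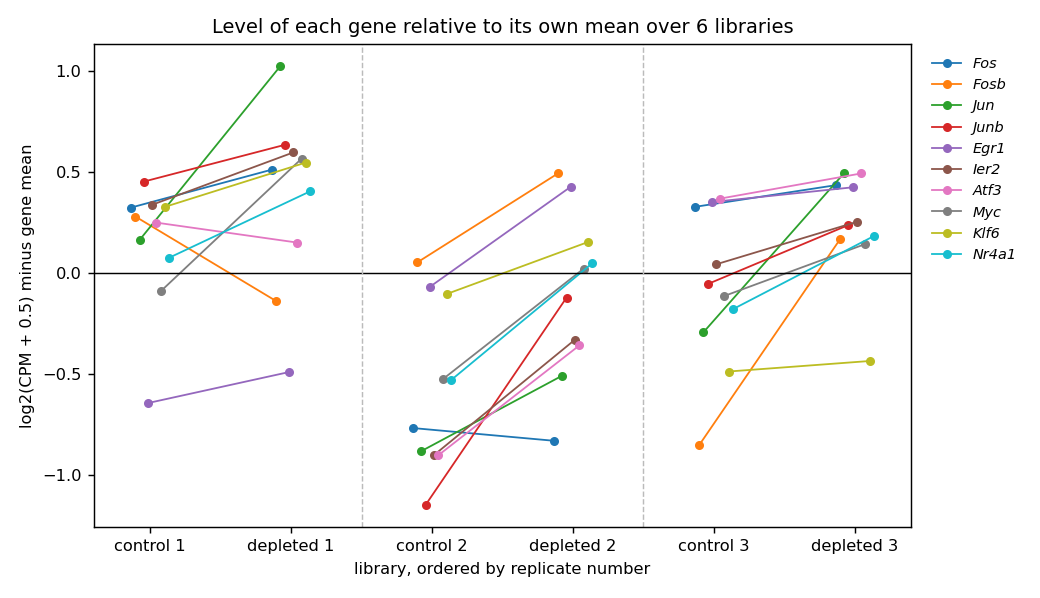
Level of each gene in each library, as log2(CPM + 0.5) minus the gene's mean over the 6 libraries (vertical axis), with libraries ordered by replicate number; lines join the control and depleted library of 1 number. Most lines lie low in replicate 2, Egr1 lies low in replicate 1 and Klf6 in replicate 3.

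**Figure D4:**
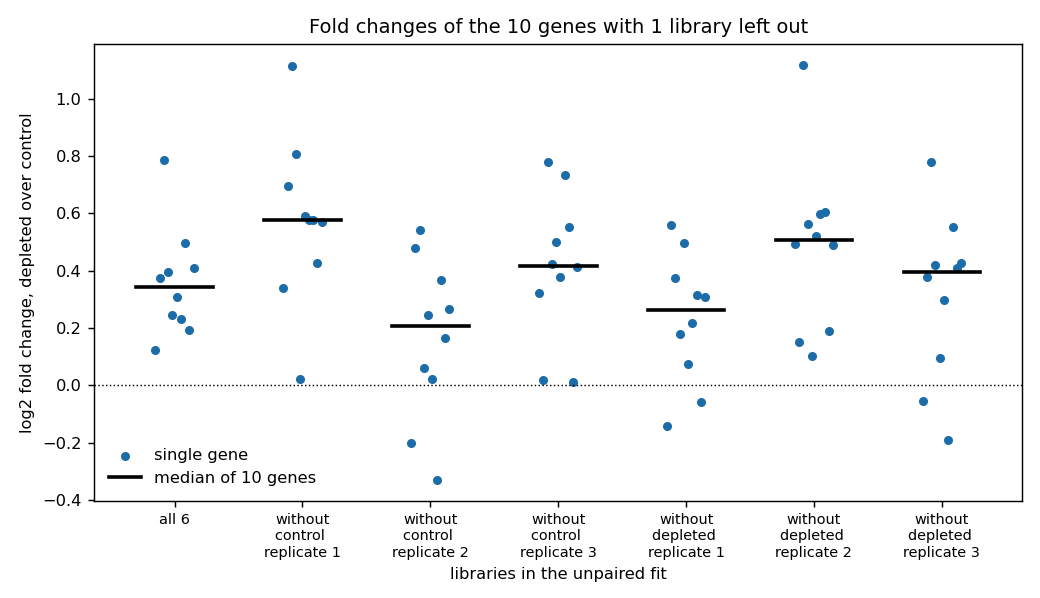
Log2 fold change (vertical axis) of the 10 genes in the unpaired fit on all 6 libraries and with 1 library left out (horizontal axis); points are single genes and bars the median of the 10. The median stays above 0 throughout, between 0.21 and 0.58, while Fos, Atf3 and Klf6 cross 0 in some of these fits.

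Across the 6 libraries, the mean standardised log2 CPM of the 10 genes was followed most closely by Nr4a1 (Pearson r = 0.98), Junb (0.97), Ier2 (0.95), Jun (0.93) and Myc (0.93). Klf6 (0.39), Fosb (0.10) and Egr1 (-0.26) followed it least, although each is part of that mean. Among other genes, those with the highest r were Jmjd6, which encodes a JmjC-domain hydroxylase, the DNA repair gene Ercc1 and the phenylalanyl-tRNA synthetase subunit gene Farsa (0.998 each), then Serf2 and the pyruvate kinase gene Pkm (0.996 each). Jmjd6 stood at 103, 57.2 and 83.0 CPM in controls and at 134, 91.5 and 112 CPM in depleted libraries. These r values rest on 6 libraries that share their scaling and the difference between the groups, and they were picked as the highest among all tested genes.

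Close relatives of the 10 genes showed which family members these cells transcribed. In the EGR family Egr1 had 698 to 1298 counts per library, while Egr2 had a count in 1 library (17), Egr3 in 2 (5 and 6) and Egr4 in 1 (9). In the NR4A family Nr4a1 had 1102 to 2692 counts, Nr4a2 0 to 30 and Nr4a3 0 in all 6 libraries. Npas4, a neuronal activity gene, was also at 0 in all 6. Zero counts in libraries of this size allow up to 3 counts each, and this covers counting error only. Egr2, Egr3, Egr4, Nr4a2, Nr4a3 and Npas4 did not pass the filter on low counts and were not tested.

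The FOS and JUN families were transcribed more broadly. Jund, the third JUN gene, went from 15.3 ± 5.65 to 22.6 ± 4.42 CPM (paired log2 fold change 0.61, SE 0.18, paired edgeR adjusted p = 0.0395), with the depleted library higher in 3 of 3 pairs. That call was lost when any 1 pair was left out (adjusted p between 0.0814 and 0.184). Fosl1, which encodes FRA-1, stood at 1.41, 1.08 and 0.32 CPM in controls and at 4.33, 3.24 and 0.68 CPM in depleted libraries, higher in 3 of 3 pairs on 6 to 97 counts and not called (paired edgeR adjusted p = 0.0949). The annotated intervals of Fosl1 and Ccdc85b overlap. Fosl2 had 54 to 156 counts and was not called (paired edgeR adjusted p = 0.399). In the MYC family, Mycn stood at 374 ± 103 and 442 ± 80.3 CPM and Mycl at 14.6 ± 0.466 and 21.5 ± 5.52 CPM. Neither was called (paired edgeR adjusted p = 0.0627 and 0.0900). These relatives were named for their families, but the lists that hold them were chosen with earlier results of these data known.

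A wider list of 32 further immediate early genes, Jund, Fosl1 and Fosl2 among them, had 26 tested, of which 25 had a fold change above 0, with a median of 0.36. The paired edgeR fit called 9 of the 26 higher and 0 lower, against 4.96% and 7.9% of all genes. The unpaired fit called 0, with 3 at an unadjusted p under 0.05, and DESeq2 called 0. The direction of immediate early genes in these libraries was known when the list was written. Nothing is therefore read from these counts or from the calls of genes on this list. Of the called genes, those with the largest fold changes were Ier3, a modulator of cell death and ERK signalling, Plk2, a polo-like kinase, Jund and Btg1, an antiproliferative cofactor.

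Ier3 stood at 5.40, 7.51 and 5.74 CPM in controls and at 11.7, 10.9 and 10.4 CPM in depleted libraries, with no overlap (paired log2 fold change 0.83, SE 0.24, paired edgeR adjusted p = 0.0350). The mean of Plk2 rose from 68.1 ± 27.9 to 103 ± 45.5 CPM (adjusted p = 0.00253 in the paired edgeR fit) while the mean of Btg1 rose from 66.9 ± 10.1 to 90.2 ± 12.6 CPM (adjusted p = 0.0141 in the same edgeR fit). Only Plk2 of these 3 was still called whichever pair was left out. Ier3 was lost in all 3 such fits (adjusted p 0.0574 to 0.191) and Btg1 in 2 of them (0.0626 and 0.0859).

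Of 25 tested genes for SRF, CREB, their cofactors and the ERK and ribosomal S6 kinases, the paired edgeR fit called 5 lower and 1 higher, against 7.9% and 4.96% of all genes, and the list median was 0.09. The unpaired fit called 0, with 5 at an unadjusted p under 0.05, and DESeq2 called 2, both lower. Elk3, a ternary complex factor that can repress SRF targets, stood at 15.2, 10.1 and 7.85 CPM in controls and at 3.71, 4.29 and 1.29 CPM in depleted libraries, with no overlap (paired log2 fold change -1.91, SE 0.31, paired edgeR adjusted p = 0.00168). The intervals of Cdk17 and Gm32551 overlap Elk3. Creb1, which encodes the factor that binds cAMP response elements, stood at 127, 183 and 114 CPM in controls and at 70.2, 111 and 50.5 CPM in depleted libraries (paired log2 fold change -0.91, SE 0.10, paired edgeR adjusted p = 1.38e-04). Both calls held whichever pair was left out, in fits that share libraries with the full one. Neither gene was called in the unpaired edgeR fit (adjusted p = 0.143 for Elk3 and 0.285 for Creb1). This list and those of partner, feedback and decay genes below were also chosen with earlier results of these data known. Nothing is therefore read from their counts or from the calls of their genes, held or lost.

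The S6 kinase genes Rps6ka2 and Rps6ka3, whose products phosphorylate CREB and SRF downstream of ERK, fell by 0.76 and 0.67 on the paired log2 scale (paired edgeR adjusted p = 0.00399 and 0.0127). Rps6ka2 went from 39.8 ± 3.65 to 23.4 ± 1.93 CPM and Rps6ka3 from 33.9 ± 8.74 to 21.9 ± 8.88 CPM. Rps6ka3 was not called without pair 3 (adjusted p = 0.0915). The other 2 called genes were Map2k1, the ERK kinase MEK1 (lower, paired edgeR adjusted p = 0.00976, and 0.0838 without pair 3), and Stat3 (higher, paired edgeR adjusted p = 0.0178, and 0.0511 to 0.103 with any pair left out), which are named after their values were seen. Rps6ka2 spans 214.3 kb, Rps6ka3 112.6 kb, Creb1 71.8 kb, Map2k1 67.8 kb and Elk3 63.7 kb, and Stat3, called higher, spans 52.8 kb, while 8 of the 10 immediate early factors are under 10 kb. The part of length in these results was not tested. Srf itself stood at 21.6, 16.2 and 21.9 CPM in controls and at 39.6, 17.5 and 33.4 CPM in depleted libraries, higher in 3 of 3 pairs and not called (paired edgeR adjusted p = 0.0525). The interval of Srf holds Mir6976.

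Of 23 listed partners of the AP-1, MYC and EGR proteins 21 were tested, with a median of 0.13. The paired edgeR fit called 2 higher and 0 lower, against 4.96% and 7.9% of all genes, while the unpaired fit called 0 (3 at an unadjusted p under 0.05) and DESeq2 called 1, higher. Mafg, a small MAF protein that pairs with other bZIP factors, stood at 157, 133 and 140 CPM in controls and at 216, 203 and 198 CPM in depleted libraries, with no overlap (paired log2 fold change 0.52, SE 0.08, paired edgeR adjusted p = 9.37e-04). Mnt, a MAX partner that opposes MYC, rose from a mean of 62.8 ± 2.41 to one of 81.0 ± 4.78 CPM (adjusted p = 0.0219, paired edgeR fit). The call of Mafg held whichever pair was left out, and that of Mnt was lost with any of them (adjusted p 0.0692 to 0.134). Max was at 124 ± 11.2 and 145 ± 12.8 CPM (paired edgeR adjusted p = 0.0798).

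Genes of feedback on ERK and AP-1 formed another list. It held 16 genes for dual-specificity phosphatases, Sprouty and SPRED proteins and other feedback regulators, with a median of 0.18. The paired edgeR fit called 3 higher and 0 lower, against 4.96% and 7.9% of all genes. The unpaired fit called 0 (2 at an unadjusted p under 0.05) and DESeq2 called 0. The 3 were Ier3, which also stands in the list of immediate early genes, Errfi1, an inhibitor of the EGF receptor, and Dusp7, an ERK phosphatase. Errfi1 stood at 65.7, 55.3 and 53.4 CPM in controls and at 90.5, 80.4 and 71.8 CPM in depleted libraries (paired log2 fold change 0.48, SE 0.09, paired edgeR adjusted p = 0.00559), with no overlap. Dusp7 rose from a mean of 28.9 ± 5.71 to one of 38.7 ± 6.51 CPM (adjusted p = 0.0418, paired edgeR fit), a call that was lost with any pair left out (adjusted p 0.108 to 0.185). Dusp1, itself an immediate early gene that inactivates MAP kinases, was at 33.2 ± 7.04 and 34.4 ± 10.1 CPM (paired edgeR adjusted p = 0.914).

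Of 16 genes for proteins that bind AU-rich elements or degrade mRNA, with a median of 0.17, the paired edgeR fit called 4 higher and 2 lower, against 4.96% and 7.9% of all genes, the unpaired fit 0 (1 at an unadjusted p under 0.05) and DESeq2 0. The 2 lower genes were Tia1, an AU-rich element binding protein, from 142 ± 95.3 to 64.1 ± 41.1 CPM, and the 5′ to 3′ exonuclease gene Xrn1, which stood at 141, 185 and 141 CPM in controls and at 91.5, 120 and 82.6 CPM in depleted libraries (paired log2 fold change -0.68, SE 0.08, paired edgeR adjusted p = 2.35e-04). Both held whichever pair was left out. The 4 higher genes were the deadenylase subunit genes Pan2 and Pan3, the exosome nuclease gene Exosc10 and Khsrp, a decay-promoting AU-rich element binding protein, with paired log2 fold changes of 0.29 to 0.33 (paired edgeR adjusted p = 0.0229 to 0.0406). None of these 4 stayed called in every fit with a pair left out, and Pan2 and Khsrp are named after their values were seen. Zfp36, which encodes tristetraprolin, was at 11.7 ± 2.76 and 13.4 ± 6.48 CPM (paired edgeR adjusted p = 0.775).

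**Figure D5:**
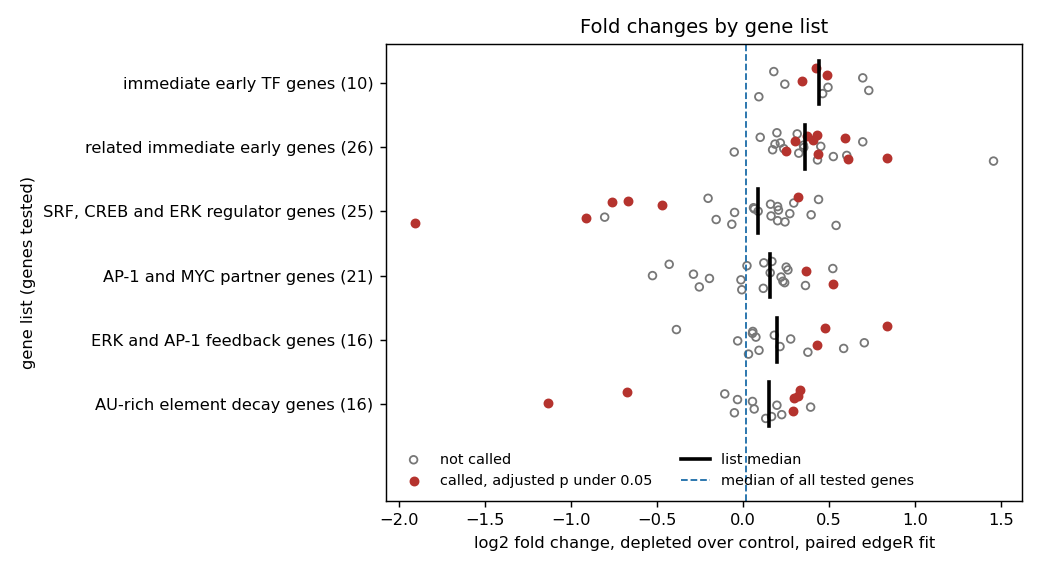
Log2 fold change of depleted over control in the paired edgeR fit (horizontal axis) for every tested gene of each list; red points were called at an adjusted p under 0.05, open points were not, black bars are list medians and the dashed line is the median of all tested genes. The called immediate early genes lie to the right, and 5 of the 6 called regulators, Elk3 farthest, lie to the left. Of all tested genes, 4.96% were called higher and 7.9% lower. Nothing is read from these sides, because the genes and lists were chosen with earlier results of these data known.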

How the data were processed

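The submitters' processing notes name mm10, DESeq2 1.42.0, StringTie 2.2.1 and HISAT2 2.2.1 without saying what each was used for. The deposited table holds estimated counts of reads per gene, already whole numbers, and 6 columns that were matched to samples by title. Nothing read here states the strand setting, a spike-in or the pulse length. Overlapping genes were looked up for the 10 genes, which had none in the RefSeq table, and for the called list genes, Srf and Fosl1. Besides the overlaps given above, Mafg overlapped Gm17586, Errfi1 overlapped 1700045H11Rik and Map2k1 overlapped Uchl4. Likewise Xrn1 overlapped Gm16794, Stat3 overlapped Gm46295 and Sik1 overlapped Gm41564.

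Analysis used edgeR 4.0.16 under R 4.3.3: filterByExpr by group, TMM scaling, and the robust quasi-likelihood test of depleted against control over 6 libraries, Benjamini-Hochberg adjusted over all tested genes and called under 0.05. Standard errors are those implied by the fold change and F statistic. The paired fit adds the replicate number as a block. Deviations from group means in log2 CPM correlated across genes at 0.268, 0.387 and 0.321 for same-numbered libraries and at -0.265 to -0.025 for others. This decided the pairing, while the titles give replicate numbers and do not name pairs. Because each group is centred on its own mean, the values for others are not independent of those for same-numbered libraries. Members and lists were chosen with earlier results of these data known. Genes of other lists are named if called, up to 4 per list by size of fold change, with Srf. Max, Dusp1, Zfp36 and family relatives are named for their roles. Alternatives were median-ratio (RLE) size factors, DESeq2, no filter, the block, and leaving out libraries or pairs.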

Additional observations from a re-analysis of the deposited data

How the results depend on the processing

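With RLE size factors, DESeq2 or no filter on low counts, the 10 genes had a median log2 fold change of 0.34 to 0.36 and all 10 stayed above 0. DESeq2 called 641 genes in all, against 139 in the unpaired edgeR fit, 2 regulator genes and 1 partner gene. With the replicate block, 2259 genes were called in all, 3 of the 10, 9 related immediate early genes, 6 regulators, 2 partners, 3 feedback genes and 6 decay genes. The median of the 10 was 0.44 with the block. With 1 library left out, the median ranged from 0.206 to 0.577, 0 or 1 genes were called in all, and 0 of the 10 were called. With the block and 1 pair left out, the median was 0.236 to 0.437, and 949, 1418 or 1428 genes in all, 1 to 2 of the 10, 3, 4 or 5 related genes, 3 to 6 regulators, 1 to 2 partners, 1 feedback gene and 2 to 5 decay genes were called. Over all these omissions the log2 fold change ranged from -0.202 to 0.493 for Fos, -0.33 to 0.734 for Atf3 (up to 1.351 with the block), -0.06 to 0.428 for Klf6 and -0.012 to 0.991 for Fosb. The other 6 genes stayed above 0 in every setting. The cause of these shifts was not tested. Atf3, Fosb and Fos rest on the fewest counts, at 0 to 16, 12 to 53 and 23 to 88 per library.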
